A study of Mus musculus with 9 samples.

Results

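The genes described here are the clustered histone genes of the mouse, taken as every symbol of the count table that starts with Hist1h, Hist2h, Hist3h or Hist4h. There were 70 such symbols, of which 1 with -ps in its name and 20 with fewer than 30 reads summed over the 9 libraries were left out, so that 49 of the 55418 symbols in the table were members. The members comprised 4 genes of the linker histone H1, 11 of H2A, 12 of H2B, 10 of H3 and 12 of H4. The total reads of the members nearest the minimum were 32 for Hist1h3b and 33 each for Hist1h2bl and Hist1h2bp, and those of the symbols just under it were 29 for Hist1h2an and 27 each for Hist1h2bf and Hist2h2aa2. The annotation lists 1 member, Hist1h2al (13:51202727-51203065 in mm10), as a processed pseudogene outside the cluster, and it is kept because the selection was by symbol.

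The libraries came from 66cl4, a murine line labelled as triple negative breast cancer, grown in DMEM with calf serum. Cells of all groups had been transduced with an shRNA vector and were kept in puromycin, a drug that kills cells without the vector. The 3 groups of 3 libraries were SCR, which carried a scrambled shRNA, and shEya3_KD1 and shEya3_KD2, which carried different hairpins against Eya3, a phosphatase and transcriptional cofactor. All came from 1 cell line. The titles call the replicates biological but do not say how the cultures were separated, so that p-values measure the spread between these libraries.

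Library totals were 27758862 to 52691960 reads. Eya3 stood at 68.1, 79.0 and 71.6 CPM (read counts scaled to library depth with the TMM factors of edgeR) in the SCR libraries, at 24.9, 21.5 and 22.9 in shEya3_KD1 and at 38.6, 39.8 and 34.1 in shEya3_KD2, so the groups did not overlap. Of the epithelial markers Krt8 was at a mean of 679 CPM in SCR, while Krt18 was at 0.0277 CPM, Cdh1 at 0.0678 CPM and Epcam at 0 in every library. Of the receptors that define the triple negative class Pgr was at 0 in every library, whereas Esr1 was at 7.11 CPM and Erbb2 at 53.6 CPM in SCR. Summed leukocyte markers were 0.653 to 1.01 CPM in SCR, 0.403 to 0.538 in shEya3_KD1 and 0.0369 to 0.136 in shEya3_KD2, and endothelial markers 3.50 to 4.11, 0.351 to 0.490 and 1.85 to 2.43 CPM. Summed fibroblast markers, 0 of 6 at 0 in every library, were 28.7 to 35.7 CPM in SCR, 53.6 to 58.7 in shEya3_KD1 and 30.7 to 44.7 in shEya3_KD2. Within that list Pdgfra, Pdgfrb and Col1a2 rose with shEya3_KD1 (log2 fold changes of 0.44, 4.31 and 5.70), while Col1a1 fell (-1.48). Summed mammary epithelial markers, of which 5 of 6 had reads, were 657 to 697 CPM in SCR, 1223 to 1371 in shEya3_KD1 and 765 to 869 in shEya3_KD2. Nearly all of this was Krt8, which rose to 1314 CPM in shEya3_KD1 and 792 CPM in shEya3_KD2. Krt18 rose to 0.955 and 2.62 CPM, and Krt14 fell with shEya3_KD1 (-1.26) and rose with shEya3_KD2 (3.15). The summed fibroblast and epithelial markers were thus both highest in shEya3_KD1, as were the summed members, and their part in the member results was not tested.

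Histones are the proteins around which DNA is wound. H2A, H2B, H3 and H4 form the core of the nucleosome and H1 binds the linker DNA between cores. Most clustered histone genes have no introns and are transcribed in S phase, when new DNA has to be packaged. Their transcripts end just after a short stem-loop instead of in a poly(A) tail. The stem-loop is bound by SLBP, and cleavage after it needs the U7 snRNP with Lsm10 and Lsm11. Some of these genes can also give polyadenylated transcripts that run on past the stem-loop, as seen in cells that leave the cycle. Libraries made with an mRNA kit, as here, hold mainly polyadenylated RNA, so reads of these genes do not measure the whole pool of histone transcripts.

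A stem-loop within 4 mismatches of a 16-base consensus was found after the stop codon in the annotated transcripts of 37 of the 49 members, 21 to 54 bases past the stop. The stem-loops fell into 8 sequences, and 1 example of each, read from GENCODE M21 transcripts, is shown because it is the element that marks this family. Capitals mark the stem-loop and lower case the 4 bases on either side.
Hist1h1c (H1): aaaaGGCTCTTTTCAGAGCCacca
Hist1h3e (H3): aaacGGCTCTTTTAAGAGCCacct
Hist2h2ac (H2A): aaaaGGCTCTTTTTAGAGCCacca
Hist1h3g (H3): taaaGGCTCTTCTTAGAGCCaccc
Hist4h4 (H4): caaaGGCCCTTTTCAGGGCCcaca
Hist1h4i (H4): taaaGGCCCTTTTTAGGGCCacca
Hist1h4a (H4): caaaGGCCCTTCTCAGGGCCgccc
Hist1h4j (H4): taaaGGTCCTTTTCAGGACCacca
All 26 stem-loops of H1, H2A, H2B and H3 genes began GGCTCTT. Of the 11 H4 stem-loops 9 began GGCCCTT and 2 GGTCCTT. No stem-loop was found in the annotated transcripts of 12 members, among them Hist2h2be and Hist1h2bc. Of these 12, 8 have models that end at the stop codon, so that these letters could not be in them.

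The annotated models differ most in what follows the stop codon. In 23 members the annotation goes on for 150 to 4931 bases, and these are called long models below. The other 26 are called short models: 25 of them end within 114 bases of the stop and Hist1h2al has no annotated stop codon. A stem-loop was found in an annotated transcript of 21 of the 23 members with long models, with that transcript running past it. For Hist1h2bp, with at most 150 bases after the stop, the transcript with the stem-loop ends 38 bases past it. In Hist1h1c 840 bases follow the stem-loop, in Hist1h2ac 2010, in Hist1h2be 1861, in Hist1h4i 330 and in Hist4h4 2445. The division into long and short models was made after the values had been seen and is used only as a description.

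Upstream sequences were taken from the RefSeq promoter table of GRCm38.p6 for 43 members. The motifs searched for, on both strands in the 250 bases before the start, were TATAAA, the core promoter box, CCAAT, the box bound by NF-Y, and ATTTGCAT, the octamer bound by Oct-1. They occur in 14.3%, 37.5% and 1.81% of the 27025 genes with such a window. CCAAT was present in 4 of 4 H1, 9 of 9 H2A, 10 of 10 H2B, 8 of 9 H3 and 3 of 11 H4 members matched. The octamer was present in 5 of 9 H2A and 5 of 10 H2B members and in none of the 4 H1, 9 H3 and 11 H4 members. TATAAA was present in 3 of 4 H1, 4 of 9 H2A, 5 of 10 H2B, 4 of 9 H3 and 5 of 11 H4 members.

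The stretches before the starts of the genes that the results turn on are printed with matches to those motifs, on either strand, in capitals. Hist2h2be and Hist1h2bc had no entry of their own, and the stretch shown is that of the H2A gene divergently transcribed from the same region. Each runs 5′ to 3′ toward the named gene's start.
Hist1h1c (13:23738607-23738806, plus strand): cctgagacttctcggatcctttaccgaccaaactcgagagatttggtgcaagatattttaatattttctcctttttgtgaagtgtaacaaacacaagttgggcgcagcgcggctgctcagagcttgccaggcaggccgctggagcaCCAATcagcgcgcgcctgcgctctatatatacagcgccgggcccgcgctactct
Hist2h2ac, shared with Hist2h2be (3:96220881-96221080, minus strand): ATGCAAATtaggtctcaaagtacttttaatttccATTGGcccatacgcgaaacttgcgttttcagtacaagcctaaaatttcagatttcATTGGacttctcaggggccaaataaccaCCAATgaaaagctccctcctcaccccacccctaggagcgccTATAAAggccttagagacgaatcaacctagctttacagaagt
Hist1h2ac, shared with Hist1h2bc (13:23683960-23684159, minus strand): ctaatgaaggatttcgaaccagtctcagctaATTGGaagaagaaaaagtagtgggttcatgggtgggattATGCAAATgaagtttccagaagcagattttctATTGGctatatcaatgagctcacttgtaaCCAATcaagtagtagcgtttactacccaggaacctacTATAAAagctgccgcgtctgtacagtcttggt
Hist1h2bg, shared with Hist1h2ae (13:23571230-23571399, plus strand): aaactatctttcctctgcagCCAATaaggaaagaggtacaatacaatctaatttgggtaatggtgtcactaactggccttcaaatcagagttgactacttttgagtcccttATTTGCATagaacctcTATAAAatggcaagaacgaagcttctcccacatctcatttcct
Hist1h4i (13:22041363-22041562, minus strand): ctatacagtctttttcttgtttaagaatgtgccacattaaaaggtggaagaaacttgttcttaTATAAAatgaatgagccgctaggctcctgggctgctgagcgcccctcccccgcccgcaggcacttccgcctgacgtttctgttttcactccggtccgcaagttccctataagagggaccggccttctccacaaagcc
Hist4h4 (6:136804432-136804631, minus strand): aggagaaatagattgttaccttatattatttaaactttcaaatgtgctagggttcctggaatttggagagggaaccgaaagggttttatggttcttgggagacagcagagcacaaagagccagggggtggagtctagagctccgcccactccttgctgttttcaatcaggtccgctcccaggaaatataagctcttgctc
The H2A and H2B regions each held 1 octamer and 1 TATAAA, with 3 CCAAT matches in those of Hist2h2ac and Hist1h2ac and 1 in that of Hist1h2bg. The stretch of Hist4h4 held none of these letters.

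The members together took 745 to 1550 reads in a library, or 0.00189% to 0.00394% of all reads. Hist1h1c alone took 24.0% of the members' reads, Hist2h2be 10.5%, Hist1h2bc 9.94% and Hist1h4i 5.77%, and these 4 genes together 50.3%. Per kilobase of annotated exon, the mean SCR level was 2.43 CPM per kb for Hist1h2ao, 2.34 for Hist1h1c, 1.74 for Hist1h2bc, 1.34 for Hist1h4i and 0.708 for Hist2h2be. The filter on low counts kept 33 of the 49 members. The other 16, with 32 to 73 reads in all, comprised 3 H2A, 5 H2B, 4 H3 and 4 H4 genes, and for them levels and unfiltered fold changes are given without a test. The filter needs enough reads in as many libraries as a group holds, so a member of low counts could pass through the group where it was high. Hist1h2ac, Hist1h2al and Hist1h3d passed only because of their shEya3_KD1 libraries, so their tests are not independent of the high level there.

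The summed level of all 49 members was 20.8 ± 2.75 CPM in SCR (SD, n = 3), 37.5 ± 1.45 in shEya3_KD1 and 26.0 ± 2.10 in shEya3_KD2. The H1 sum was 5.00 ± 0.647 CPM in SCR, 10.4 ± 0.850 in shEya3_KD1 and 10.1 ± 1.28 in shEya3_KD2, so that it was high with both hairpins. The H2B sum was 6.04 ± 0.872, 13.6 ± 1.01 and 5.90 ± 0.576 CPM in the same order, high in shEya3_KD1 only. The H3 sum was 2.37 ± 0.329, 3.52 ± 0.0173 and 2.35 ± 0.442 CPM, with the same order of groups as H2B. The H4 sum was 3.65 ± 0.913, 5.37 ± 0.292 and 3.95 ± 0.139 CPM, and the H2A sum 3.72 ± 0.326, 4.68 ± 0.743 and 3.75 ± 0.264 CPM. These sums are carried by few genes: without the 4 most read members the total was 12.3 ± 2.03, 16.8 ± 0.922 and 12.4 ± 1.09 CPM. Without those of the 4 that belong to each class, the H1 sum was 1.34 ± 0.373, 1.73 ± 0.142 and 1.68 ± 0.377 CPM and the H2B sum 2.17 ± 0.307, 3.65 ± 0.432 and 2.32 ± 0.310 CPM. Without Hist1h4i the H4 sum was 2.67 ± 0.867, 3.16 ± 0.309 and 2.25 ± 0.164 CPM, so that its mean in shEya3_KD2 was below that of SCR, by less than the SCR SD, and no longer above it.

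**Figure D1:**
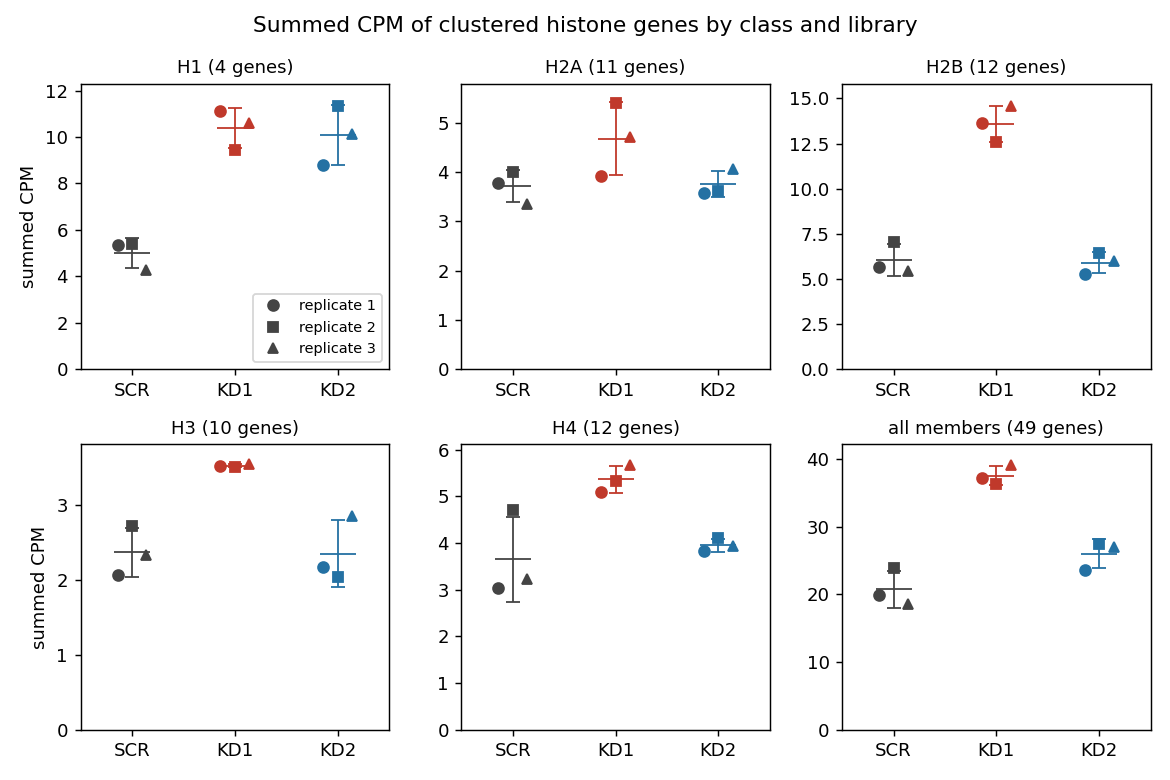
Summed CPM of the members of each histone class and of all 49 members (vertical axes, from 0) in each library, grouped by hairpin, with symbols for replicates and bars for the mean and SD. The H1 sum is at 10.4 CPM in shEya3_KD1 and 10.1 in shEya3_KD2 against 5.00 in SCR, while the H2B sum is high in shEya3_KD1 only.

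The SCR libraries differed among themselves. In SCR replicate 2, 26 of the 33 tested members were above their group mean, with a median deviation of 0.27 on the log2 scale, against -0.10 and -0.12 in replicates 1 and 3. The summed level of 15 other RNAs without a poly(A) tail was 13.9 CPM in that library and 4.43 to 11.8 CPM in the other 8, and Rn7sk, a small nuclear RNA of this list, was at 7.64 CPM there against 0.989 and 1.63 CPM in the other SCR libraries. The part of this library in the member results was examined by leaving it out. Without SCR replicate 2 the number of members that rose with shEya3_KD1 was 14 of 35 tested, against 11 of 33 with all libraries. The filter then kept more members, so the 2 counts are not of the same set.

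In shEya3_KD1 against SCR, 11 of the 33 tested members rose and 2 fell at an adjusted p of 0.05 (edgeR quasi-likelihood test, Benjamini-Hochberg over 15914 genes), while 50.3% of all genes tested were called. The members that rose were 33.3% of those tested, against 24.1% of all genes, and those that fell were 6.1%, against 26.2% of all genes. The 11 include Hist1h2ac, Hist1h2al and Hist1h3d, which were tested only because they were high in shEya3_KD1. The groups did not overlap for 16 of the 33, or 48.5%, against 59.3% of all genes. The median log2 fold change was 0.53 over the members tested and 0.48 over all 49 without the filter, of which 36 were higher, beside a median of 0.01 over all genes tested. Calls were therefore not more frequent among the members than among all genes, and most of those made were of higher levels.

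In shEya3_KD2 against SCR, 5 of the 33 rose and 1 fell, while 45.3% of all genes tested were called. Members that rose were 15.2% of those tested, against 23.0% of all genes, and the 1 that fell was 3.0%, against 22.3%. The groups did not overlap for 6 of the 33, or 18.2%, against 54.4% of all genes. The median log2 fold change was 0.04 over the members tested, beside -0.00 over all genes. In shEya3_KD2 against shEya3_KD1, 8 of the 33 fell and 0 rose by the same edgeR test, and 49.6% of all genes tested were called. Members that fell were 24.2% of those tested, close to the 22.5% of all genes. The 8 again include Hist1h2ac, Hist1h2al and Hist1h3d, which were tested only because they were high in shEya3_KD1. Of all 15914 genes tested 4301 rose in this comparison by the edgeR test, while 0 of the 33 members did. At an unadjusted p of 0.05 the number of members higher in shEya3_KD2 was still 0, and DESeq2 also called 0. The median log2 difference between the hairpins was -0.35 over the members tested. These comparisons share their libraries, so that their calls are not independent.

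**Figure D2:**
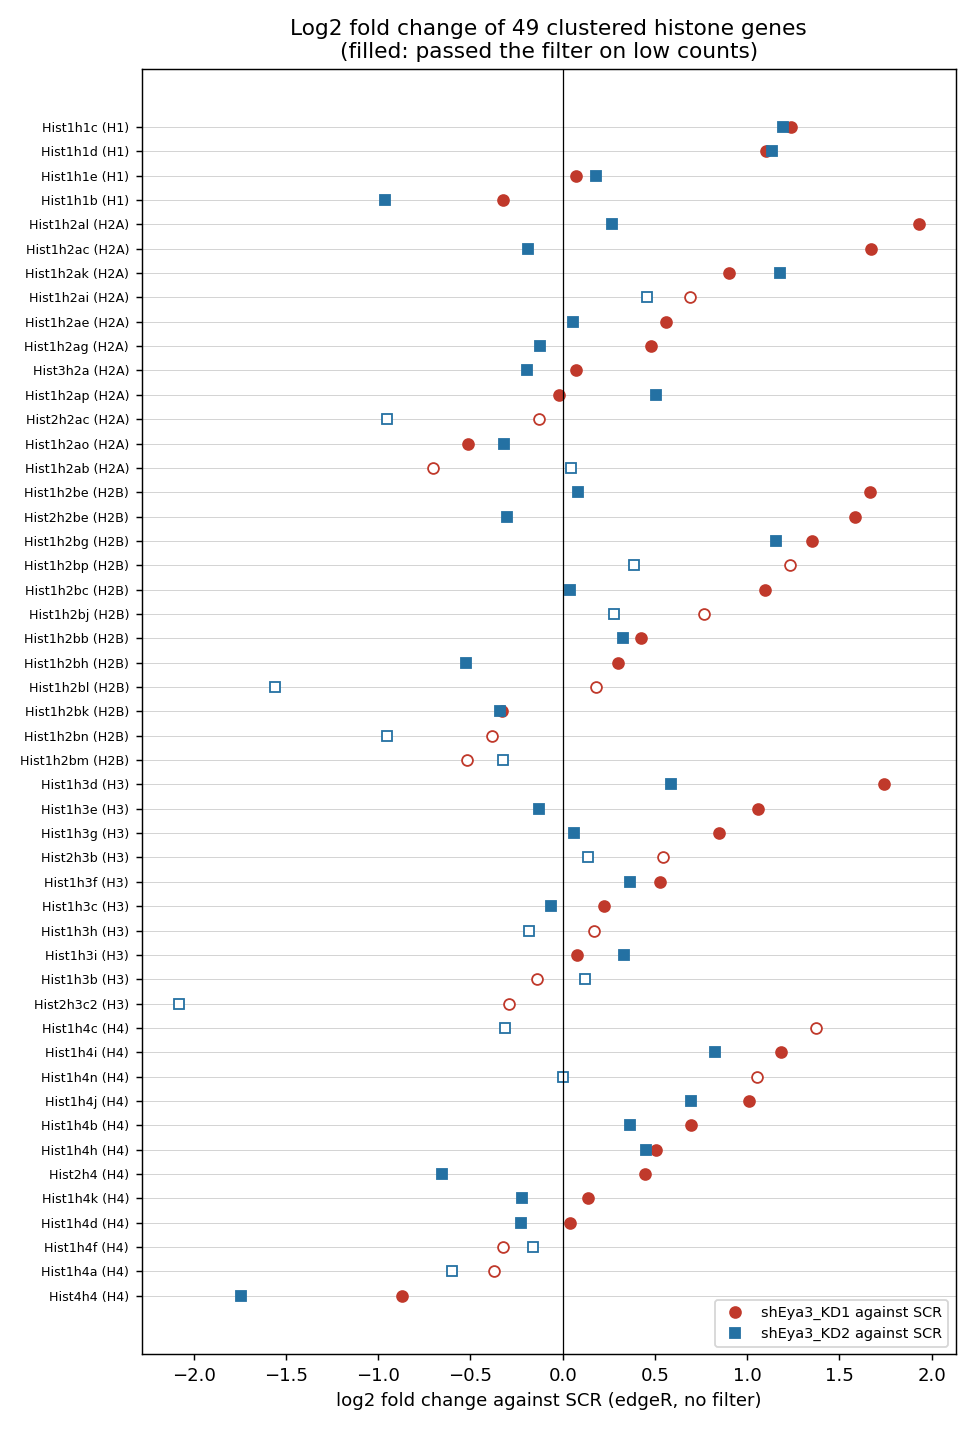
Log2 fold change against SCR (horizontal axis, edgeR fit without a filter on low counts) of each of the 49 members, grouped by class, for shEya3_KD1 (circles) and shEya3_KD2 (squares), with filled symbols for the 33 members that passed the filter. Of the 49, 36 lie above 0 with shEya3_KD1 and 26 with shEya3_KD2.

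Among the linker histones 2 of 4 tested genes, Hist1h1c and Hist1h1d, rose with each hairpin, beside 24.1% of all genes with shEya3_KD1 and 23.0% with shEya3_KD2. Hist1h1c (13:23738808-23740367, 1 exon), the member with the most reads, was at 3.92, 3.73 and 3.32 CPM in SCR, at 9.21, 7.79 and 8.96 in shEya3_KD1 and at 7.41, 9.75 and 8.02 in shEya3_KD2. Every library of both hairpins was above every SCR library, while the hairpins overlapped each other. Its log2 fold change was 1.24 ± 0.12 (SE, adjusted p = 6.61e-07, edgeR) with shEya3_KD1 and 1.18 ± 0.12 (adjusted p = 2.56e-06, edgeR) with shEya3_KD2.

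Hist1h1d, another somatic H1, was at 0.356, 0.472 and 0.216 CPM in SCR, at 0.849, 0.725 and 0.720 in shEya3_KD1 and at 0.663, 0.738 and 0.920 in shEya3_KD2. It was again higher in all 6 hairpin libraries, with log2 fold changes of 1.10 ± 0.28 (adjusted p = 0.00401, edgeR) and 1.12 ± 0.28 (adjusted p = 0.00446, edgeR). Between the hairpins the difference was -0.06 ± 0.12 for Hist1h1c and 0.01 ± 0.25 for Hist1h1d, and neither was called. Hist1h1e was at 0.636 ± 0.206 CPM in SCR, 0.678 ± 0.0637 in shEya3_KD1 and 0.731 ± 0.123 in shEya3_KD2 (SD, n = 3), and the groups overlapped. Its model overlaps that of Hist1h2be on the same strand, so reads there could be assigned to either. Hist1h1b, whose model ends at the stop codon, was at 0.360 ± 0.133, 0.290 ± 0.122 and 0.180 ± 0.131 CPM and passed the test in neither comparison. Its log2 fold change with shEya3_KD2 was -0.98 with all libraries and -1.80 without shEya3_KD2 replicate 3 (adjusted p = 0.0111, edgeR).

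Of the 8 tested H2A genes 2 rose and 1 fell with shEya3_KD1, beside 24.1% and 26.2% of all genes. With shEya3_KD2 1 rose, beside 23.0% of all genes. The 2 that rose with shEya3_KD1 passed the filter only because of their levels in that group. Hist1h2ac (13:23681467-23683948, 1 exon) was at 0.139, 0.0786 and 0.0961 CPM in SCR, at 0.349, 0.327 and 0.346 in shEya3_KD1 and at 0.117, 0.0738 and 0.0708 in shEya3_KD2. Only the shEya3_KD1 libraries stood above the rest, with a log2 fold change of 1.67 ± 0.37 (adjusted p = 0.00163, edgeR). The gene passed the filter on low counts only through those libraries, so its test is not independent of their high level. The gene had 66 reads in all, and a small non-coding gene, Gm24991, lies inside it on the same strand.

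The pseudogene Hist1h2al was at 0.218, 0.197 and 0.0721 CPM in SCR, at 0.574, 0.795 and 0.547 in shEya3_KD1 and at 0.117, 0.148 and 0.330 in shEya3_KD2. It had the largest log2 fold change of the members that rose with shEya3_KD1, 1.93 ± 0.39 (adjusted p = 0.00079, edgeR). Like Hist1h2ac, it passed the filter only because of the shEya3_KD1 libraries. Only 32.4% of its 50-base windows occur in no other annotated gene, so its reads may come from other H2A genes, which was not tested.

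Hist1h2ao, the most read H2A gene, was at 0.989, 1.28 and 1.23 CPM in SCR, at 0.724, 0.982 and 0.720 in shEya3_KD1 and at 0.936, 1.03 and 0.826 in shEya3_KD2. Its log2 fold change with shEya3_KD1 was -0.51 ± 0.20 (adjusted p = 0.0486, edgeR), and DESeq2 gave -0.52 with an adjusted p of 0.144. The edgeR call was also lost without a filter and without SCR replicate 2 or 3, shEya3_KD1 replicate 1 or 3 or shEya3_KD2 replicate 1 or 3, with adjusted p values of 0.0518 to 0.148. Hist1h2ak was at 0.0791, 0.314 and 0.0961 CPM in SCR and at 0.312, 0.480 and 0.378 in shEya3_KD2, where replicate 2 of SCR lay within the range of the hairpin. It rose by 1.16 ± 0.44 on the log2 scale with shEya3_KD2 (adjusted p = 0.0442, edgeR), but this call was lost without any library other than SCR replicate 2, with adjusted p values of 0.0526 to 0.176. Without SCR replicate 2 it also rose with shEya3_KD1, by 1.81 (adjusted p = 0.0061, edgeR). Hist1h2ae was at 0.658 ± 0.136 CPM in SCR, 0.979 ± 0.267 in shEya3_KD1 and 0.637 ± 0.331 in shEya3_KD2 and was not called. Hist1h2ao and its near copy Hist1h2ap have 6.5% and 6.93% of their windows in no other gene, so the split of reads between them is uncertain.

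H2B held the tested member with the widest difference between the hairpins, Hist2h2be. With shEya3_KD1, 4 of 7 tested H2B genes rose, beside 24.1% of all genes, and with shEya3_KD2 1 did, beside 23.0%. The gene (3:96221119-96223738, 1 exon) was at 1.82, 2.08 and 1.66 CPM in SCR, at 6.07, 4.75 and 6.02 in shEya3_KD1 and at 1.46, 1.33 and 1.65 in shEya3_KD2. The shEya3_KD1 libraries were all above SCR, and the shEya3_KD2 libraries were all just below it. Its log2 fold change was 1.59 ± 0.14 with shEya3_KD1 (adjusted p = 2.45e-07, edgeR) and -0.32 ± 0.17 with shEya3_KD2 (adjusted p = 0.136, edgeR). The difference between the hairpins was -1.90 ± 0.15 (adjusted p = 8.57e-08, edgeR). This transcript shares no 50-base window exactly with any other annotated gene. Near copies with mismatches were not searched for.

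Hist1h2bc (13:23684199-23692908, 2 exons) was at 1.78, 2.44 and 1.83 CPM in SCR, at 4.09, 4.47 and 4.41 in shEya3_KD1 and at 1.77, 2.44 and 2.08 in shEya3_KD2. The levels in shEya3_KD2 lay within the SCR range or at its edge, and those in shEya3_KD1 were all above it. The log2 fold change was 1.10 ± 0.15 with shEya3_KD1 (adjusted p = 2.24e-05, edgeR) and 0.03 ± 0.16 with shEya3_KD2.

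Hist1h2be was at 0.218, 0.570 and 0.361 CPM in SCR, at 1.15, 1.19 and 1.35 in shEya3_KD1 and at 0.351, 0.591 and 0.330 in shEya3_KD2. It followed the same order, with a log2 fold change of 1.67 ± 0.29 with shEya3_KD1 (adjusted p = 0.000206, edgeR). Its overlap with Hist1h1e, which was not called, touches part of its model.

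Hist1h2bg departed from these genes. It was at 0.257, 0.334 and 0.336 CPM in SCR, at 0.899, 0.725 and 0.749 in shEya3_KD1 and at 0.526, 0.886 and 0.708 in shEya3_KD2. Here all 6 hairpin libraries were above SCR, with log2 fold changes of 1.35 ± 0.27 (adjusted p = 0.000656, edgeR) and 1.14 ± 0.28 (adjusted p = 0.00374, edgeR). The difference between the hairpins was -0.21 ± 0.24 and was not called.

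**Figure D3:**
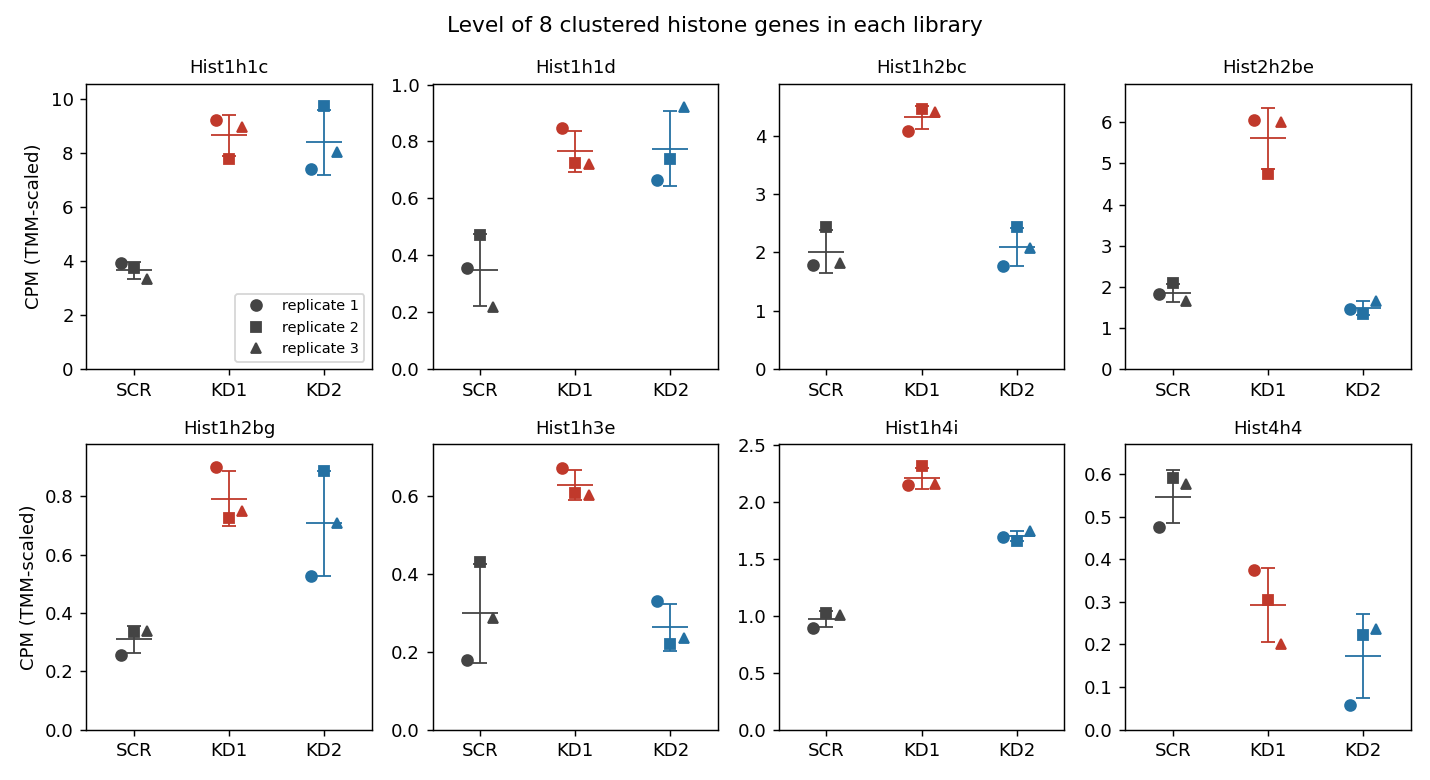
CPM of 8 members (vertical axes, from 0, each with its own scale) in each library, by group, with bars for the mean and SD over 3 libraries. Hist1h1c, Hist1h1d, Hist1h2bg and Hist1h4i are above SCR in all 6 hairpin libraries, Hist1h2bc, Hist2h2be and Hist1h3e only in shEya3_KD1, and Hist4h4 is below SCR in all 6.

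Among 6 tested H3 genes 2 rose with shEya3_KD1, beside 24.1% of all genes. With shEya3_KD2 edgeR called 0 of the 6, beside 45.3% of all genes. Of the 6, 0 had an unadjusted p under 0.05 and DESeq2 called 0. Hist1h3d was at 0.178, 0.0983 and 0.120 CPM in SCR, at 0.499, 0.398 and 0.461 in shEya3_KD1 and at 0.136, 0.111 and 0.330 in shEya3_KD2. Its shEya3_KD1 libraries were above all others, with a log2 fold change of 1.74 ± 0.40 (adjusted p = 0.00201, edgeR). Hist1h3d passed the filter only because of those libraries. Hist1h3e was at 0.178, 0.432 and 0.288 CPM in SCR, at 0.674, 0.608 and 0.605 in shEya3_KD1 and at 0.331, 0.222 and 0.236 in shEya3_KD2. The groups SCR and shEya3_KD1 did not overlap, and the log2 fold change was 1.06 ± 0.31 (adjusted p = 0.00985, edgeR), or 0.78 without SCR replicate 1 (adjusted p = 0.0542, edgeR). Only 26.6% of its windows occur in no other gene.

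Hist1h3g was at 0.237, 0.570 and 0.216 CPM in SCR and at 0.549, 0.795 and 0.518 in shEya3_KD1, and SCR replicate 2 lay within the range of the hairpin. Its log2 fold change of 0.85 ± 0.35 was not called (adjusted p = 0.0566, edgeR). Without SCR replicate 2 it was 1.44 (adjusted p = 0.00387, edgeR), and without shEya3_KD2 replicate 2 or 3 it was called at 0.84 (adjusted p = 0.0466 and 0.0484, edgeR). Hist1h3c was at 0.506 ± 0.0812, 0.593 ± 0.0899 and 0.461 ± 0.113 CPM and Hist1h3i at 0.324 ± 0.0751, 0.342 ± 0.102 and 0.377 ± 0.233 CPM in SCR, shEya3_KD1 and shEya3_KD2, and the groups of both genes overlapped in every comparison.

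Of 8 tested H4 genes 1 rose and 1 fell with each hairpin. Of all genes tested 24.1% rose and 26.2% fell with shEya3_KD1, and 23.0% and 22.3% with shEya3_KD2. Hist1h4i (13:22040636-22041362, 1 exon) was at 0.890, 1.02 and 1.01 CPM in SCR, at 2.15, 2.32 and 2.16 in shEya3_KD1 and at 1.70, 1.66 and 1.75 in shEya3_KD2. The groups did not overlap in any of the comparisons, with shEya3_KD1 highest. Its log2 fold change was 1.18 ± 0.15 with shEya3_KD1 (adjusted p = 9.6e-06, edgeR) and 0.81 ± 0.16 with shEya3_KD2 (adjusted p = 0.000659, edgeR). The difference between the hairpins, -0.37 ± 0.14 (adjusted p = 0.0408, edgeR), was no longer called by DESeq2 (adjusted p = 0.139) or without any library other than SCR replicate 1 (adjusted p of 0.052 to 0.124, edgeR).

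Hist4h4 (6:136801553-136804415, 1 exon), a single gene apart from the large clusters, went the other way. It was at 0.475, 0.590 and 0.577 CPM in SCR, at 0.374, 0.304 and 0.202 in shEya3_KD1 and at 0.0585, 0.222 and 0.236 in shEya3_KD2. All 6 hairpin libraries were below every SCR library. The log2 fold change was -1.76 ± 0.40 with shEya3_KD2 (adjusted p = 0.00216, edgeR) and -0.87 ± 0.35 with shEya3_KD1 (adjusted p = 0.0494, edgeR). The latter was not called by DESeq2 (adjusted p = 0.149), nor by edgeR without SCR replicate 1, 2 or 3 or shEya3_KD1 replicate 2 or 3 (adjusted p of 0.0579 to 0.157). Hist1h4d was at 0.538 ± 0.107, 0.558 ± 0.0986 and 0.442 ± 0.118 CPM and Hist1h4h at 0.241 ± 0.0645, 0.344 ± 0.0872 and 0.335 ± 0.126 CPM in SCR, shEya3_KD1 and shEya3_KD2, and neither was called.

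Of the 33 tested members 19 were called in no comparison. The values of Hist1h1c, Hist1h1d, Hist1h2bg, Hist1h4i and Hist4h4 with the 2 hairpins are set against the same SCR libraries, so the calls with each hairpin are not independent of each other.

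The 23 long models summed to 14.2 ± 1.56 CPM in SCR, 29.8 ± 1.59 in shEya3_KD1 and 19.6 ± 1.76 in shEya3_KD2 (SD, n = 3). The 4 most read members are all long models, and they alone summed to 8.50 ± 0.736, 20.8 ± 1.28 and 13.7 ± 1.43 CPM in the same order. The 26 short models summed to 6.59 ± 1.19, 7.71 ± 0.530 and 6.46 ± 0.422 CPM. Without the filter, 20 of the 23 long models were higher with shEya3_KD1, with a median log2 fold change of 1.06, against 16 of the 26 short models with a median of 0.17. With shEya3_KD2, 12 of 23 and 14 of 26 were higher, with medians of 0.04 and 0.02. Longer models also collect more reads and share fewer windows with other genes: the median exon length was 1249 bases against 471.5, and 20 of the 22 members with under 50% of windows in no other gene were short. The part of length and of sequence copies in this difference was not tested.

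The difference between long and short models with shEya3_KD1 had the same sign within each histone class but H4. The medians were 1.29 for 6 long and -0.07 for 6 short H2B models, 0.79 for 4 and 0.19 for 6 H3 models, and 0.56 for 3 and 0.23 for 8 H2A models. In H1 the medians were 1.10 for 3 long models and -0.32 for the 1 short model. In H4 they were 0.45 for 7 long and 0.51 for 5 short models.

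**Figure D4:**
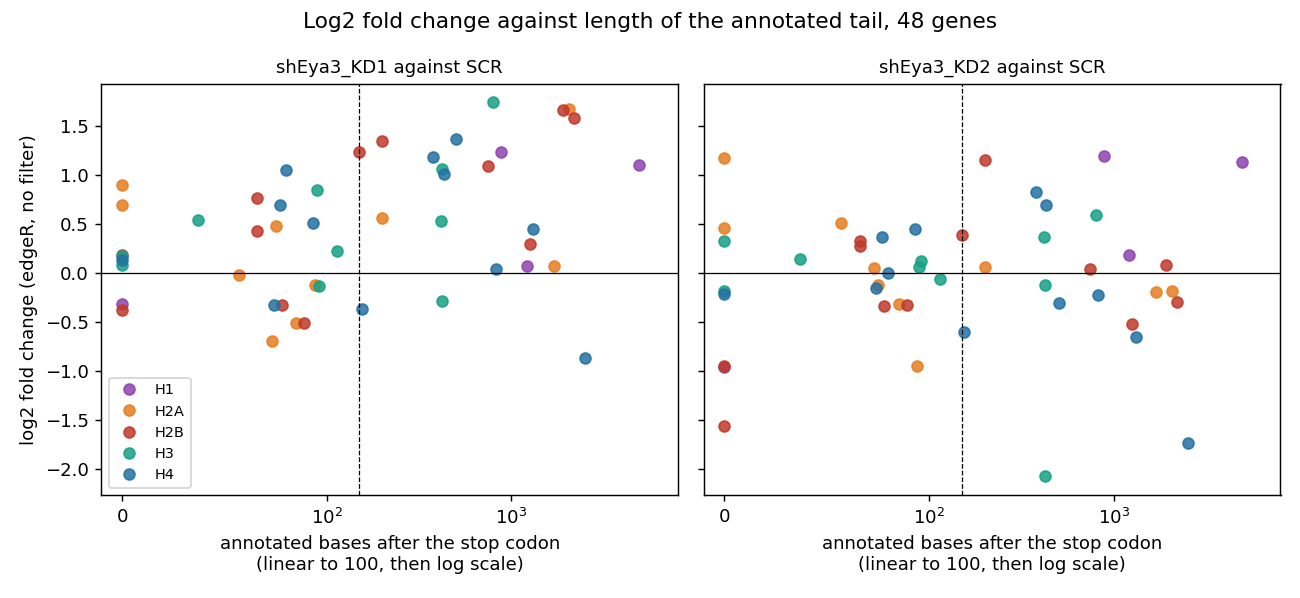
Log2 fold change against SCR (vertical axis, edgeR fit without a filter) over the annotated bases after the stop codon (horizontal axis, linear to 100 and logarithmic beyond) for the 48 members with an annotated stop codon, coloured by class, with the dashed line at 150 bases. With shEya3_KD1 20 of the 23 genes to the right of or on the line lie above 0, and Hist4h4 lies farthest below.

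The members carry the symbols of 4 clusters, and the levels differed between them. The Hist1 cluster on chromosome 13 falls into 2 stretches. The 23 members between 23531050 and 23761230, 15 of them long models, summed to 11.7 CPM in SCR, 22.9 in shEya3_KD1 and 17.4 in shEya3_KD2. The 18 members between 21715763 and 22043676, 3 of them long models, summed to 5.45, 6.97 and 6.04 CPM. Within the first stretch the median log2 fold change with shEya3_KD1 was 1.09 for the 15 long and 0.32 for the 8 short models. Within the second it was 1.18 for the 3 long and 0.14 for the 15 short models. The 5 members of the Hist2 cluster on chromosome 3 summed to 2.59, 6.44 and 1.88 CPM, and most of these reads were of Hist2h2be. Hist3h2a, the 1 member on chromosome 11, which overlaps Trim17 on the same strand, was at 0.324, 0.336 and 0.297 CPM. Hist4h4 is the 1 member on chromosome 6.

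H2A and H2B genes often lie head to head and share an upstream region. For 6 such pairs both genes were members, with 176 to 296 bases between their starts. Hist1h2ac and Hist1h2bc, 251 bases apart, had log2 fold changes of 1.67 and 1.09 with shEya3_KD1 and of -0.19 and 0.04 with shEya3_KD2 in the unfiltered fit. Hist2h2ac and Hist2h2be, 239 bases apart, went separate ways: with shEya3_KD1 the H2B gene had 1.59 and the H2A gene -0.13. In CPM, Hist2h2ac was at 0.139, 0.334 and 0.168 in SCR, at 0.025, 0.164 and 0.432 in shEya3_KD1 and at 0.0585, 0.148 and 0.142 in shEya3_KD2. Its 3 shEya3_KD1 libraries thus spanned the whole SCR range, and it did not pass the filter. Hist1h2ae and Hist1h2bg, 176 bases apart, had 0.56 and 1.35 with shEya3_KD1 and 0.06 and 1.16 with shEya3_KD2. In the other 3 pairs, of low counts, both genes were higher with shEya3_KD1 in 2 (Hist1h2ag with Hist1h2bj, and Hist1h2ai with Hist1h2bl), and in the third Hist1h2ak was higher and Hist1h2bn lower. Differences between the 2 genes of a pair were not tested.

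Of the factors that make and process histone transcripts, 22 of 24 listed genes were measured. Called changes with shEya3_KD1 were 5 up and 5 down, while 24.1% of all genes tested rose and 26.2% fell. Those with shEya3_KD2 were 6 up and 3 down, while 23.0% of all genes tested rose and 22.3% fell. Slbp, the stem-loop binding protein, was at 93.6, 86.8 and 88.4 CPM in SCR and at 102, 110 and 106 CPM in shEya3_KD1, with a log2 fold change of 0.24 ± 0.06 (adjusted p = 0.00514, edgeR). It was not called with shEya3_KD2 (0.15 ± 0.06, adjusted p = 0.0668, edgeR). Npat, the coactivator that cyclin E-Cdk2 phosphorylates at histone loci, had 0.09 ± 0.06 with shEya3_KD1 and rose by 0.24 ± 0.06 with shEya3_KD2 (adjusted p = 0.0061, edgeR). Casp8ap2, which encodes FLASH, a protein of the cleavage complex, was at 73.0, 73.2 and 75.1 CPM in SCR and fell to 60.5, 57.7 and 57.2 CPM in shEya3_KD1 (log2 fold change -0.33 ± 0.08, adjusted p = 0.00279, edgeR). Of the U7 snRNP proteins Lsm10 fell by 0.28 and Lsm11 rose by 0.26 on the log2 scale with shEya3_KD1. Ccne1, cyclin E1, had log2 fold changes of -0.79 ± 0.07 and -0.26 ± 0.06 and Cdk2 of -0.43 ± 0.06 and -0.29 ± 0.06 with shEya3_KD1 and shEya3_KD2, and all 4 were called. Zfp473 was not called with either hairpin, and Cpsf2, a subunit of the cleavage factor, rose by 0.47 and 0.50.

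Genes of S phase moved in both directions. Of 30 tested, 10 were called higher and 4 lower in shEya3_KD1, and 6 higher and 9 lower in shEya3_KD2, beside 24.1% and 26.2% of all genes rising and falling with the first and 23.0% and 22.3% with the second. Tyms, thymidylate synthase, had 0.62 with shEya3_KD1 and -0.25 with shEya3_KD2. Rrm1 and Rrm2, the subunits of ribonucleotide reductase, had -0.59 and 0.46 with shEya3_KD1. Of 18 histone chaperones, 4 were called higher and 3 lower with shEya3_KD1, and 9 higher and 1 lower with shEya3_KD2. Daxx, which deposits H3.3 with Atrx, had -0.29 and 0.74, and Asf1a, which carries H3-H4, had 0.46 and 0.65.

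Histone genes outside the clusters, most of which give polyadenylated transcripts throughout the cycle, were read far more. Their summed level was 2625 ± 137 CPM in SCR, 2761 ± 153 in shEya3_KD1 and 2612 ± 188 in shEya3_KD2 (SD, n = 3). Of 10 tested, 4 were called higher and 1 lower with shEya3_KD1, beside 24.1% and 26.2% of all genes. With shEya3_KD2 5 were called higher and 3 lower, beside 23.0% and 22.3% of all genes. H2afz, the H2A.Z gene, was at 610, 545 and 571 CPM in SCR, at 730, 816 and 922 in shEya3_KD1 and at 457, 399 and 545 in shEya3_KD2, and rose by 0.52 ± 0.11 with the first hairpin and fell by 0.30 with the second. Cenpa, the centromeric H3, had 0.74 ± 0.10 and -0.35 ± 0.10 with shEya3_KD1 and shEya3_KD2, so that these 2 genes also changed in opposite directions. H2afj rose by 0.54 ± 0.07 and 0.56 ± 0.07. H1f0, the linker histone of resting cells, was not called with shEya3_KD1 (0.16 ± 0.07) and fell by 0.23 with shEya3_KD2.

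Other RNAs that lack a poly(A) tail were followed as well, since what an mRNA kit retains of such RNA can vary between libraries. Of the 15 listed, Rmrp and Rpph1 were at 0 in every library and 4 passed the filter. Of these, 2 rose with shEya3_KD1, beside 24.1% of all genes tested. With shEya3_KD2 edgeR called 0, with 1 at an unadjusted p of 0.05 and 1 called by DESeq2. Snora73b was at 2.02, 2.91 and 2.74 CPM in SCR, at 6.12, 4.80 and 6.80 in shEya3_KD1 and at 2.96, 2.84 and 3.82 in shEya3_KD2, with a log2 fold change of 1.20 ± 0.17 with shEya3_KD1 (adjusted p = 2.79e-05, edgeR). Snora73a had 0.88. The summed level of the list was 4.49 to 13.9 CPM in SCR, 8.77 to 11.8 in shEya3_KD1 and 4.43 to 6.39 in shEya3_KD2, so that the ranges of SCR and shEya3_KD1 overlapped. The means were 8.23 ± 5.01, 10.0 ± 1.60 and 5.45 ± 0.984 CPM (SD, n = 3). Snora73a and Snora73b were thus the RNAs of the list that rose with shEya3_KD1, and their part in the member results was not tested.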

How the data were processed

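Per the labels' protocols, a NuGEN Universal Plus mRNA-Seq kit was used to make 9 libraries from total RNA. Read counts per symbol were taken as deposited, without normalization. The submitters' processing notes name FastQC, MultiQC, STAR and mm10. How reads were counted, over which gene models and with what strand option is not given in the sources used here, so reads of overlapping genes on opposite strands (13 members) could not be told apart. Group and replicate came from the sample titles, and 0 per-sample columns were left unused. In each pair of replicates the counts varied beyond sampling noise over all genes (chi-square over its degrees of freedom, 9.24 to 45.2), while over the members with enough reads the ratio was 0.839 to 2.36, at or near sampling noise in several pairs.

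Counts were fitted in R 4.3.3 with edgeR 4.0.16 (filterByExpr, TMM, robust quasi-likelihood fit over all 9 libraries and 15914 genes, Benjamini-Hochberg adjusted p of 0.05). Standard errors come from the fold change and its F statistic. The fit was tested on simulated data. Changes were put there into genes drawn from all those tested, so the outcome does not measure recovery at the low counts of most members. For 1 gene an exact permutation test of 3 against 3 has 0.1 as its smallest p. DESeq2 1.42.0 was an alternative, beside RLE size factors, no filter, at least 5 CPM in 3 libraries, only the groups compared and a replicate block. Each library was also left out in turn, and members apart from other members were counted alone. These have most of their windows in no other member and overlap no gene on the same strand. Sequence shared with genes outside the members, and overlaps on the opposite strand, were not considered. Depth limits precision: most members had few reads. Members and lists were chosen with earlier results of these data known.

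Named members were the 4 with most counts tested in each class, the 3 called with the largest changes each way in each comparison, and those called alike with both hairpins. Other genes named were Eya3, histone mRNA factors, unclustered histone variants and up to 4 called genes of each other list. Hist2h2ac, Hist1h2ag, Hist1h2ai, Hist1h2bj, Hist1h2bl and Hist1h2bn were named as partners in pairs, and Hist3h2a for its place, after their values were seen. Coordinates, stop codons and stem-loops came from GENCODE M21 on mm10, and promoters from RefSeq on GRCm38.p6. A window is 50 bases of a member's transcript, compared with all annotated transcripts.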

Additional observations from a re-analysis of the deposited data

Results flagged for a closer look

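The effects of the hairpins differed, by the test of shEya3_KD2 against shEya3_KD1 itself (edgeR adjusted p under the threshold of 0.05), for 8 clustered and 6 unclustered histone genes. The 8 were 24.2% of the 33 clustered genes tested, and the 6 were of 10 tested. Among the 8, Hist1h2ac, Hist1h2al and Hist1h3d were tested only because they were high in shEya3_KD1. Of all genes tested 49.6% were called in this comparison and 22.5% fell. Those that rose were 4301 of the 15914 genes tested, but 0 of the 33 clustered genes. The log2 difference was -1.90 for Hist2h2be, -1.87 for Hist1h2ac, -1.68 for Hist1h2al, -1.60 for Hist1h2be, -1.20 for Hist1h3e, -1.17 for Hist1h3d, -1.07 for Hist1h2bc and -0.37 for Hist1h4i, and in each of these genes no shEya3_KD2 library reached the lowest shEya3_KD1 library. Among the unclustered genes it was -1.09 for Cenpa, -0.82 for H2afz, -0.38 for H1f0, 0.41 for H2afx, 0.40 for H3f3b and 0.26 for H2afy. The call of Hist1h3d was lost without shEya3_KD1 replicate 1 or 3 or shEya3_KD2 replicate 1 or 2 (edgeR adjusted p of 0.0506 to 0.118), and that of Hist1h4i without most libraries. Cenpa and H2afz rose with one hairpin and fell with the other.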

How the results depend on the processing

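With each library left out the filter kept 35 to 39 members, against 33 with all libraries. Members that rose with shEya3_KD1 numbered 11, and 10 to 14 with each library left out. Those that rose with shEya3_KD2 numbered 5, and 4 to 5. Those that fell between the hairpins numbered 8, and 6 to 10. With at least 5 CPM in 3 libraries 1 member was left to test: the numbers that rose were 1 and 1, and those that fell were 0 in all 3 comparisons. Members that fell with shEya3_KD1 numbered 2. The number was 1 with RLE size factors, 0 with DESeq2, 1 without a filter and 1 with only the groups compared. It was 1 among members apart from other members and 0 to 2 with each library left out. It was 0 without SCR replicate 2, SCR replicate 3 or shEya3_KD1 replicate 3. Members that fell with shEya3_KD2 numbered 1, but 2 with DESeq2, 2 without a filter and 1 to 2 with each library left out (2 without shEya3_KD2 replicate 3). Of the 27 members apart from other members 19 were tested, and 5 of them fell between the hairpins. Hist1h2al is among the 27, although only 32.4% of its windows occur in no other gene. Of 27 called results of named members 21 kept their call under every alternative that tested them. Where a call was lost the cause was not tested. The main fit tested 15914 genes. Fewer were tested with at least 5 CPM in 3 libraries (10514), and more without a filter (30670) or with a library left out (16190 to 16272). Class sums moved by less than 1 SD under RLE size factors and library totals, and no named result changed sign while called.

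The replicate numbers did not pair the samples: the deviations of same-numbered libraries correlated at -0.11 to 0.20. With the replicate block the number of members that fell with shEya3_KD1 was 1 instead of 2. Low counts limit these results, since 16 of the 49 members were not tested.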
